A study of Mus musculus with 6 samples.

Results

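The cell cycle and proliferation genes described here are 42 genes taken by name, with no cut on a measured value, from the 50686 gene identifiers in the count files. All 42 were matched to 1 Ensembl gene each in the GENCODE annotation of mm10 and all 42 were abundant enough to be tested, among 15521 genes tested in all. Gene expression was measured by RNASeq in 2 biologically independent cultures of NSC, neural stem cells from the subventricular zone of wild-type mouse embryos at E16.5, and in 2 cultures labelled NSC Bmi1Over, from E16.5 embryos of the genotype STOPFloxBmi1;NestinCre. In the latter, Cre driven by the Nestin promoter removes a stop cassette in neural progenitors and so switches on a Bmi1 transgene. H3K27me3, the histone mark deposited by Polycomb repressive complex PRC2, was measured by ChIPSeq on replicate cultures, of which the authors kept 1 library for each group. All cultures were grown with EGF and FGF, which keep neural stem cells dividing, and the mGIC samples were not analysed here. The comparison asked how the genes that drive division differed between NSC Bmi1Over and NSC, and how far they already differed between cultures of the same group.

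Cells enter the division cycle when growth factors raise the D cyclins, which activate the kinases CDK4 and CDK6. These kinases phosphorylate the pocket proteins, among them RB1 and RBL1 (p107), which then release the E2F transcription factors. E2F factors switch on the genes of replication, whereas a second wave of genes for mitosis is held back by the DREAM complex and switched on in G2 through paired CHR and CCAAT promoter elements. BMI1, a subunit of Polycomb complex PRC1, is best known in neural stem cells for repressing the inhibitors of this machinery encoded at Cdkn2a.

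TMM normalisation, the trimmed mean of M-values, was used to compare libraries. They held between 18112100 and 61353076 reads counted on genes, and the member with the fewest reads in any library had 561. Bmi1 itself was at 133 and 124 CPM (read counts scaled to library size, TMM-normalised) in NSC and at 119 and 113 CPM in the libraries labelled NSC Bmi1Over. Its log2 fold change (−0.15, standard error 0.12) was not called, the Benjamini-Hochberg adjusted p being 0.463 by the quasi-likelihood test of edgeR. As reads counted on Bmi1 were not higher in the libraries labelled NSC Bmi1Over, each direction given below rests on the labels. Markers of neural stem cells were abundant in every library, summing to between 5900 and 6610 CPM over 7 genes, with none called. Of the 7, 5 had a log2 fold change below 0, within a range from −0.74 to 0.46, and 6 did not overlap between the groups, beside 59.0% of all genes tested. The 5 astrocyte markers summed to 253 and 193 CPM in NSC and to 137 and 125 CPM in the libraries labelled NSC Bmi1Over, the 5 oligodendrocyte markers to 101 and 79.7 CPM against 55.7 and 60.5 CPM, and the 6 neuronal markers to between 926 and 1010 CPM. Of these lists 5, 3 and 6 genes were tested and 1 of each was called, beside 2.15% of all genes tested, Aldh1l1 and Cnp with lower and Syt1 with higher values in NSC Bmi1Over. The microglial, endothelial and mesenchymal lists summed to between 0.927 and 3.17 CPM, Cldn5 had no read in any library, and 4 haemoglobin genes had none. The share of reads that could not be mapped ran from 11.2% and 13.8% in NSC to 16.2% and 17.6% in the libraries labelled NSC Bmi1Over. The part of these differences in the results below was not tested.

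None of the 42 genes was called between NSC Bmi1Over and NSC at an adjusted p under 0.05, by edgeR's quasi-likelihood test or by DESeq2's Wald test, whereas edgeR called 2.15% and DESeq2 9.59% of all genes tested. The log2 fold changes of the 42 genes lay between −0.38 for Cdk4, the kinase partner of the D cyclins, and 0.28 for Mki67, the marker of cycling cells. Of the 42, 28 had a log2 fold change below 0 and 14 above 0, beside 7982 below 0 of the 15521 genes tested. Their median was −0.11, against −0.01 over all genes tested. With scaling by library size alone 37 of the 42 were below 0, and the median over all genes tested was −0.17. An unadjusted p under 0.05 in edgeR was reached by 4 of them (Cdk4, Ccnb2, Rb1 and Plk1), all with lower values in NSC Bmi1Over. Over all genes tested 24.2% reached it in either direction and 7.22% with lower values. The number of the 42 depended on the processing, being 1 with the sum of both stranded columns and 11 with scaling by library size alone. Both libraries of a group lay outside the range of the other group for 21 of the 42 genes, 16 with lower and 5 with higher values in NSC Bmi1Over. Over all genes tested this held for 59.0%, for 30.0% with lower and for 29.0% with higher values. Among the members the widest 95% intervals of the log2 fold change reached −0.72 at the low end and 0.71 at the high end, so at some genes differences of up to these sizes were not resolved with 2 cultures a group. For a single gene an exact permutation test of 2 against 2 cannot give a two-sided p under 0.333. In RNA from whole cultures, fewer dividing cells and less RNA of these genes per dividing cell cannot be told apart.

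**Figure D1:**
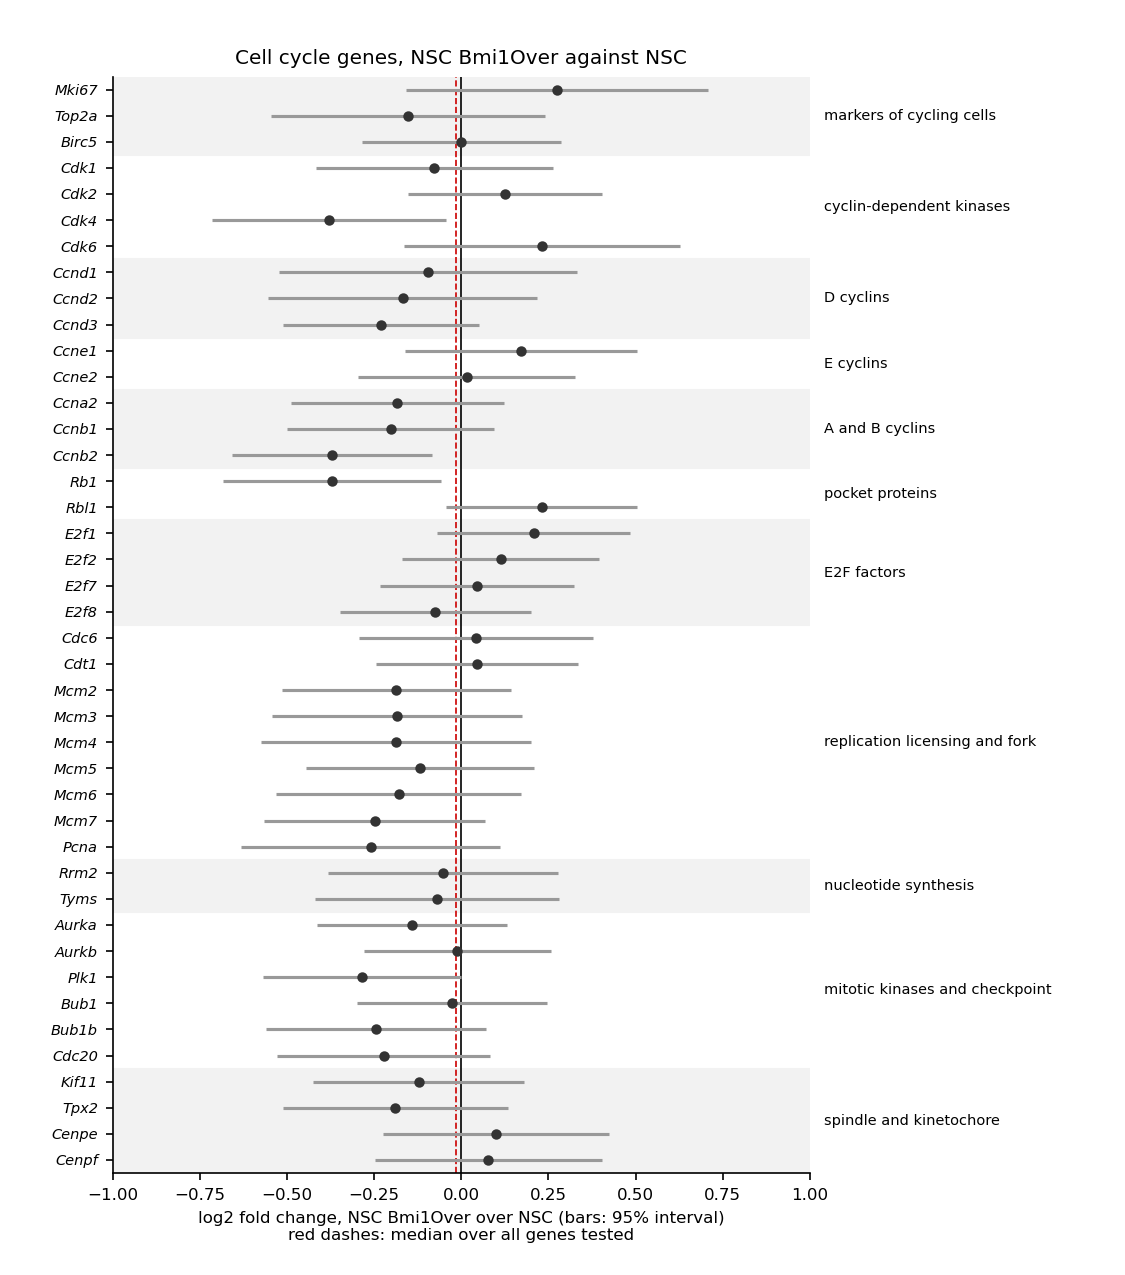
Log2 fold change of NSC Bmi1Over over NSC for each of the 42 genes, grouped by role, with bars for the 95% interval from edgeR's quasi-likelihood fit of 2 cultures a group. The black line is at 0 and the red dashes mark the median over all genes tested; the points run from −0.38 (Cdk4) to 0.28 (Mki67), and the intervals of all but 4 genes cross 0.

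The 3 markers of cycling cells did not share a direction. Mki67, which encodes the Ki-67 protein that coats mitotic chromosomes and is absent from resting cells, was at 852 and 1036 CPM in NSC and at 1182 and 1102 CPM in NSC Bmi1Over. Both NSC Bmi1Over cultures were above both NSC cultures, but NSC replicate 1 stood further from its own replicate than the latter stood from NSC Bmi1Over replicate 2. edgeR's quasi-likelihood test gave a log2 fold change of 0.28 (standard error 0.19) and an adjusted p of 0.390. The log2 fold change was 0.14 without NSC replicate 1 and 0.42 without NSC replicate 2. Top2a, the topoisomerase that untangles replicated chromosomes, was at 693 and 650 CPM in NSC and at 659 and 549 CPM in NSC Bmi1Over, with overlapping groups and a log2 fold change of −0.15. Birc5 (survivin), a subunit of the chromosomal passenger complex, had overlapping groups and a log2 fold change of 0.00 with a 95% interval from −0.28 to 0.29.

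At the entry into the cycle, the largest difference of the 42 was at Cdk4. It was at 434 and 411 CPM in NSC and at 336 and 313 CPM in NSC Bmi1Over, so the groups did not overlap and the difference between them was larger than that between the cultures of either group. The quasi-likelihood test of edgeR gave a log2 fold change of −0.38 (standard error 0.15) and an adjusted p of 0.166. Of the exon bases of Cdk4, 19.7% are shared with Tspan31 on the other strand, and the libraries were not counted by strand, so reads of the pair cannot be told apart there. When reads over shared bases were kept, by adding the counts of both strand columns, the log2 fold change was −0.17. Cdk6, the second kinase of the D cyclins, was at 23.2 and 25.0 CPM in NSC and at 33.3 and 23.8 CPM in NSC Bmi1Over, where only replicate 1 stood above NSC. Its log2 fold change of 0.23 (standard error 0.17) had an adjusted p of 0.427 in edgeR, and became −0.021 without NSC Bmi1Over replicate 1 and 0.47 without NSC Bmi1Over replicate 2.

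None of the 3 D cyclins was called. Ccnd1 (cyclin D1) was at 826 and 1027 CPM in NSC and at 894 and 839 CPM in NSC Bmi1Over. Its NSC cultures lay on either side of both NSC Bmi1Over cultures, and the log2 fold change was −0.10 with a 95% interval from −0.52 to 0.33. Ccnd2 and Ccnd3 had log2 fold changes of −0.17 and −0.23, without overlap between the groups, and neither was called. Of the exon bases of Ccnd1, 23.4% are shared with Lto1 on the other strand.

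The pocket proteins stood on opposite sides of 0. Rb1, the retinoblastoma protein, was at 57.1 and 46.9 CPM in NSC and at 41.6 and 39.0 CPM in NSC Bmi1Over. The groups did not overlap, and edgeR gave a log2 fold change of −0.37 (standard error 0.14) at an adjusted p of 0.152. With reads over shared exon bases kept, the log2 fold change of Rb1 was −0.22. Of its exon bases, 14.9% are shared with Lpar6 and Rcbtb2 on the other strand. Without NSC replicate 1 the log2 fold change of Rb1 was also −0.22. Rbl1, which is itself a target of E2F factors, was at 77.5 and 84.6 CPM in NSC and at 95.5 and 94.7 CPM in NSC Bmi1Over. Here the 2 NSC Bmi1Over cultures nearly coincided above both NSC cultures, and edgeR gave a log2 fold change of 0.23 (standard error 0.12) at an adjusted p of 0.273. Per kilobase of exon the level of Rbl1 was 1.36 and 1.81 times that of Rb1 in NSC and 2.31 and 2.44 times in NSC Bmi1Over. The length of Rb1 took in its shared exon bases, over which reads were not counted, whereas Rbl1 shares none. The part of this in the ratio was not tested.

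Among the E2F factors, the activators E2f1 and E2f2 had log2 fold changes of 0.21 and 0.11, and the repressors E2f7 and E2f8 of 0.04 and −0.07. E2f1 was at 32.0 and 32.4 CPM in NSC and at 38.0 and 36.4 CPM in NSC Bmi1Over, without overlap, and the adjusted p was 0.317 by edgeR's quasi-likelihood test. The E cyclins, which E2F factors switch on and which activate CDK2, overlapped between the groups. Ccne1 was at 40.1 and 48.0 CPM in NSC and at 54.2 and 45.3 CPM in NSC Bmi1Over, with a log2 fold change of 0.17 and a 95% interval from −0.16 to 0.51. Cdk2 had a log2 fold change of 0.12.

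Promoter sequences were searched for 3 short motifs known from cell cycle genes. A window of 300 bases, from 250 before to 50 after the start of the RefSeq transcript, was on hand for 34 of the 42 genes. The core of the E2F site, TTTNGCGC, on either strand, was in the window of 8 of the 34 (23.5%) and in 1.74% of the windows of all protein-coding transcripts. The first share counts genes, which hold 37 windows in all, and the second counts windows. The windows of these genes held a median of 25 CG dinucleotides, against 13 in protein-coding windows. The part of base composition in the matches was not tested. The core of Cdt1, E2f2, Mcm3 and Mcm7 lay only after the RefSeq start. Of the 8, 6 were among the 15 genes with a window that are E2F factors, E cyclins or genes of replication and nucleotide synthesis. None was among the 13 with a window that are A and B cyclins, markers of cycling cells or genes of mitosis and the spindle, a group that leaves out Cdk1, which was listed with the cyclin-dependent kinases and held an E2F core. The sequences below show the 150 bases before the RefSeq start of 3 of them, each 5′ to 3′ on the strand of the gene, with E2F cores, CHR elements (TTTGAA) and CCAAT boxes in capitals, on either strand. They were chosen to show a licensing gene with several E2F cores, a pocket protein with a core close to its start, and the mitotic kinase whose promoter held both kinds of element. Coordinates are in GRCm38.p6, and all 3 genes lie on the minus strand, Mcm6 at chr1:128359706-128359855, Rbl1 at chr2:157204535-157204684 and Cdk1 at chr10:69352913-69353062.
Mcm6: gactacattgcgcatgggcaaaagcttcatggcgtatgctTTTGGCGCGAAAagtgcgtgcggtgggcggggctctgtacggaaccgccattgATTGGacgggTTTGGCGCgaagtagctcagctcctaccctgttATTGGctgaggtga
Rbl1: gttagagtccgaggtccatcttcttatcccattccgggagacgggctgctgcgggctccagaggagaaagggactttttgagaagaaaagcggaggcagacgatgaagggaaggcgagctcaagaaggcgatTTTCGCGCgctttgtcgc
Cdk1: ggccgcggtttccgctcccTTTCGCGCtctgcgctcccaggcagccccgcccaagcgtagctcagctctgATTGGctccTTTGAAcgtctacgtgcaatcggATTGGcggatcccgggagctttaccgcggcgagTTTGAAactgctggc
In Mcm6, E2F cores began 110, 106 and 47 bases before the start, of which the pair farthest from it overlap on opposite strands, and reversed CCAAT boxes (ATTGG) began 57 and 14 bases before it. In Rbl1 a core began 18 bases before the start, with neither a CHR element nor a CCAAT box in the window. Cdk1 was the only member of these 3 with CHR elements, which began 71 and 15 bases before the start, downstream of an E2F core at 131. A match to these letters describes the sequence and does not show that a factor was bound. The 8 genes with an E2F core had a median log2 fold change of −0.10 and the other 26 of −0.07.

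None of the genes of replication was called. Of the 9 genes that license origins and form the fork, 7 had a log2 fold change below 0, with a median of −0.18 and a range from −0.26 to 0.04. Pcna, the sliding clamp of the replicative polymerases, was at 287 and 286 CPM in NSC and at 270 and 208 CPM in NSC Bmi1Over. The NSC cultures coincided while the NSC Bmi1Over cultures did not, and edgeR gave a log2 fold change of −0.26 (standard error 0.16) at an adjusted p of 0.348. Mcm4, a subunit of the replicative helicase, was at 139 and 152 CPM in NSC and at 149 and 107 CPM in NSC Bmi1Over, and its partner Mcm3 at 154 and 158 CPM against 157 and 118 CPM. In both cases NSC Bmi1Over replicate 1 sat with NSC and replicate 2 below all others. The loaders Cdc6 and Cdt1 each had a log2 fold change of 0.04. Rrm2, the ribonucleotide reductase subunit that limits nucleotide supply, was at 243 and 262 CPM in NSC and at 261 and 226 CPM in NSC Bmi1Over, and with Tyms, the thymidylate synthase, had log2 fold changes of −0.05 and −0.07.

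**Figure D2:**
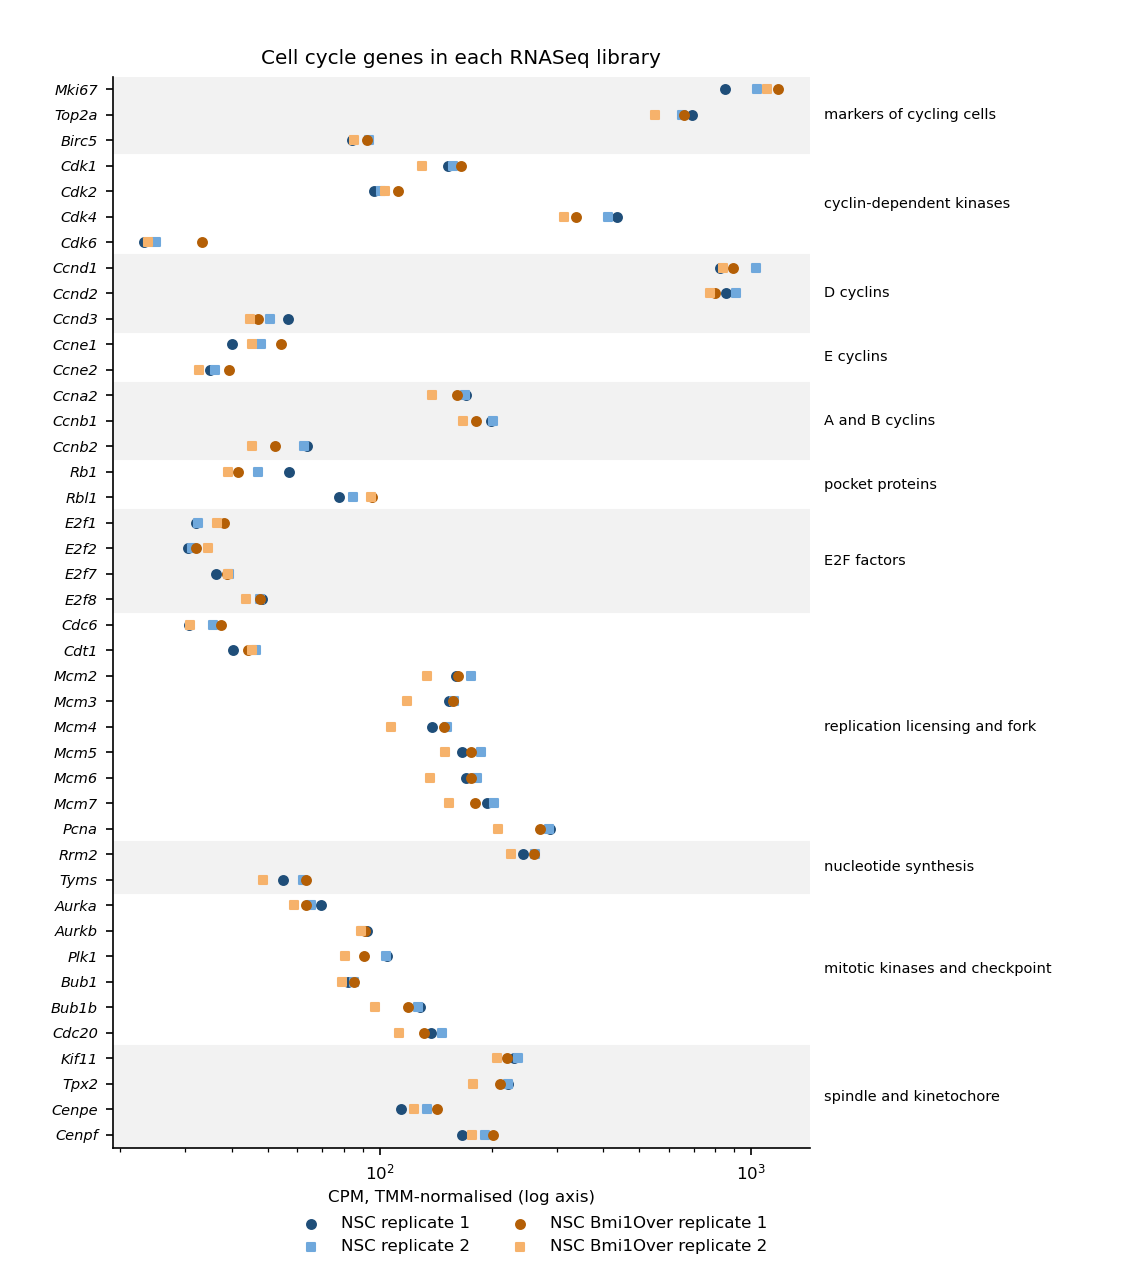
TMM-normalised CPM on a log axis of each of the 42 genes in the 4 RNASeq libraries, grouped by role. For the genes Mcm2 to Mcm7 and Pcna the orange square of NSC Bmi1Over replicate 2 lies to the left of the other 3 libraries, while for Cdk4, Ccnb2 and Rb1 both orange symbols lie to the left of both blue ones.

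The A and B cyclins, which carry the cell through S phase and into mitosis, all 3 had lower values in both NSC Bmi1Over cultures than in both NSC cultures, as did 30.0% of all genes tested, and all 3 were lowest in NSC Bmi1Over replicate 2. Ccnb2 (cyclin B2) had the smallest adjusted p of the 42 genes. It was at 63.5 and 62.5 CPM in NSC and at 52.3 and 45.3 CPM in NSC Bmi1Over, with a log2 fold change of −0.37 (standard error 0.13) and an adjusted p of 0.124 by edgeR's quasi-likelihood test. Without NSC Bmi1Over replicate 1, where 1 culture stands for the group, it was called, as 1 of the 42 genes (2.38%) beside 15.6% of all genes tested. Ccnb1, its more abundant relative per kilobase, was at 200 and 201 CPM in NSC and at 181 and 167 CPM in NSC Bmi1Over, with a log2 fold change of −0.20 (standard error 0.13) and an adjusted p of 0.359 by edgeR's quasi-likelihood test. Ccna2 had a log2 fold change of −0.18. Their kinase partner Cdk1 was at 153 and 158 CPM in NSC and at 165 and 130 CPM in NSC Bmi1Over, the cultures of the latter lying on either side of NSC.

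All 6 mitotic kinases and checkpoint genes had a log2 fold change below 0, between −0.28 and −0.01, and all 6 were lowest in NSC Bmi1Over replicate 2. Plk1, the polo-like kinase that drives mitotic entry, was at 105 and 104 CPM in NSC and at 90.8 and 80.6 CPM in NSC Bmi1Over, with a log2 fold change of −0.28 (standard error 0.12) and an adjusted p of 0.205 by edgeR's quasi-likelihood test. Of the exon bases of Plk1, 7.09% are shared with Gm44985 on the other strand. Cdc20, which activates the anaphase-promoting complex, was at 138 and 147 CPM in NSC and at 131 and 113 CPM in NSC Bmi1Over. Its groups did not overlap, and the log2 fold change was −0.22 (standard error 0.13). Aurkb, the kinase of the chromosomal passenger complex, had a log2 fold change of −0.01 with a 95% interval from −0.28 to 0.26. Of the 4 spindle and kinetochore genes, Tpx2 and Kif11, which build and push apart the spindle, had log2 fold changes of −0.19 and −0.12, and the kinetochore genes Cenpe and Cenpf of 0.10 and 0.08. Tpx2 was at 222 and 221 CPM in NSC and at 210 and 178 CPM in NSC Bmi1Over.

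The CHR element TTTGAA was in the window of 13 of the 34 genes with a promoter (38.2%), against 16.0% of protein-coding windows, and in 9 of the 13 A and B cyclins, markers of cycling cells and genes of mitosis and the spindle. The CCAAT box was in 25 of the 34 (73.5%), against 38.2%. All 13 genes with a CHR element also held a CCAAT box, a pair found in 6.38% of protein-coding windows. In Aurka, Bub1b, Cenpf and Plk1 the CHR element lay only after the RefSeq start. The 150 bases before the RefSeq start of 3 genes that held a CHR element within 30 bases of it are shown in the same way, to set their layout beside that of the 3 promoters above: Cdc20 at chr4:118437344-118437493 on the minus strand, Kif11 at chr19:37376232-37376381 on the plus strand and Top2a at chr11:99024190-99024339 on the minus strand.
Cdc20: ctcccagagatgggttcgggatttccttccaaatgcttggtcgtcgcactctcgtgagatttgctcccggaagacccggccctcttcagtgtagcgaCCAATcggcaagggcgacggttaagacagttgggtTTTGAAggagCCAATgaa
Kif11: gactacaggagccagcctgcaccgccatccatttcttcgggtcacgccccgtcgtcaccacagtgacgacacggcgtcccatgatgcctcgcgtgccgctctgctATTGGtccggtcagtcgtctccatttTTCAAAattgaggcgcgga
Top2a: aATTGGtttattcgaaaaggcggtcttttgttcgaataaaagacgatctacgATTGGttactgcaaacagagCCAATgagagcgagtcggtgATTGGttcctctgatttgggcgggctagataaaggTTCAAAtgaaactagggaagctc
The CHR element nearest to the start began 18 bases before it in Cdc20, 19 in Kif11 and 23 in Top2a, read as TTCAAA, the reverse complement, in the last of the 3 and in Kif11. The CCAAT boxes upstream of it began 53 bases before the start in Cdc20, 45 in Kif11 and between 58 and 149 in the stretch of Top2a, where 4 were found. The 13 genes with a CHR element had a median log2 fold change of −0.14 and the 21 without of −0.03. 

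For most of these genes the cultures of a group differed as much as the groups did. The log2 ratio of the group means exceeded, in size, that between the cultures of either group in 14 of the 42 genes (33.3%), compared with 43.7% of all genes tested. The pooled within-group standard deviation of the mean log2 CPM over the 42 genes was 0.10. The widest differences between the NSC cultures (replicate 2 over replicate 1) were a log2 ratio of 0.31 at Ccnd1, −0.28 at Rb1 and 0.28 at Mki67. Those between the NSC Bmi1Over cultures were −0.48 at Cdk6, −0.47 at Mcm4 and −0.41 at Mcm3.

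The NSC Bmi1Over cultures differed from each other in a common direction. Replicate 2 was below replicate 1 at 39 of the 42 genes (92.9%), compared with 50.3% of all genes tested, and the median log2 ratio was −0.20 against −0.00. E2f2, E2f7 and Cdt1 were the exceptions, with log2 ratios of 0.11, 0.01 and 0.03. The replication licensing genes had a median log2 ratio of −0.28, the nucleotide synthesis genes of −0.29, the D cyclins of −0.07 and the E2F factors of −0.03. Mcm2 to Mcm7 were all lower in replicate 2, and were so with scaling by TMM, by DESeq2's size factors and by library size alone. With DESeq2's size factors 38 of the 42 genes (90.5%) were lower in replicate 2, beside 48.5% of all genes tested. With library size alone 41 (97.6%) were lower, beside 56.3% of all genes tested. Between the NSC cultures the median log2 ratio was 0.05, with 29 of the 42 genes (69.0%) higher in replicate 2, beside 49.8% of all genes tested. With DESeq2's size factors 34 of the 42 (81.0%) were higher, beside 51.8% of all genes tested. With library size alone 19 of the 42 (45.2%) were higher, beside 38.7% of all genes tested.

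The 42 genes together took 0.845% and 0.865% of the counted reads in NSC and 0.786% and 0.674% in NSC Bmi1Over, NSC Bmi1Over replicate 2 being the lowest. That library had the lowest CPM of the 4 for 28 of the 42 genes (66.7%), compared with 35.5% of all genes tested. It was also the most deeply sequenced and had the highest unmapped share, and the part of the latter in this was not tested. With counts thinned to the shallowest library, the 42 genes had a median log2 fold change of −0.11 with 28 below 0, against −0.11 and 28 without thinning; the cultures of a group were not compared on thinned counts. Without NSC Bmi1Over replicate 2 the median log2 fold change of the 42 genes was 0.0042, with 21 of the 42 genes below 0, and without NSC Bmi1Over replicate 1 it was −0.20, with 34 below 0. The lower median of these genes in NSC Bmi1Over was thus not seen without replicate 2. Scaling by library size alone moved the median of all genes to −0.17 and that of the 42 genes to −0.25, a distance of −0.09 between them, the same as with TMM.

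**Figure D3:**
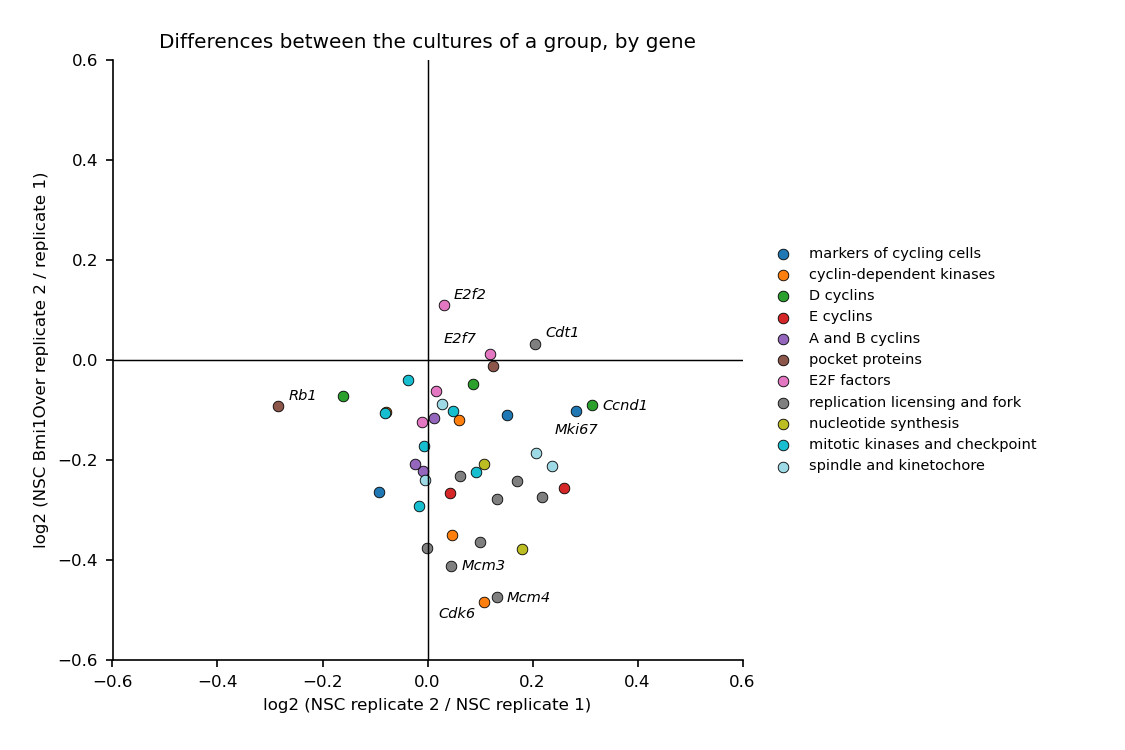
For each of the 42 genes, the log2 ratio of NSC replicate 2 to NSC replicate 1 (horizontal axis) and of NSC Bmi1Over replicate 2 to replicate 1 (vertical axis), coloured by role. All points but those of E2f2, E2f7 and Cdt1 lie below 0 on the vertical axis, with Cdk6, Mcm4 and Mcm3 lowest, while Ccnd1, Mki67 and Rb1 lie farthest from 0 on the horizontal axis.

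Levels were compared between genes only per length, as TMM-normalised CPM per kilobase of exon (RPKM). The length took in exon bases shared with other genes, over which reads were not counted. Levels of genes such as Ccnd1 and Cdk4, with 23.4% and 19.7% of bases shared, may thus be understated, and by how much was not tested. Ccnd1 was the most abundant of the 42 in every library, at 175 and 218 RPKM in NSC and at 190 and 178 RPKM in NSC Bmi1Over. In the mean of the 4 libraries it was followed by Cdk4, at 134 and 126 RPKM in NSC and at 104 and 96.4 RPKM in NSC Bmi1Over, then by Pcna, Mki67 and Rrm2, although in both NSC Bmi1Over libraries Mki67, at 118 and 110 RPKM, stood above Cdk4. The lowest level was that of Cdk6, at 1.66 and 1.79 RPKM in NSC and at 2.38 and 1.70 RPKM in NSC Bmi1Over. The kinases that share the D cyclins were thus far apart, the level of Cdk4 being 80.5 and 70.7 times that of Cdk6 in NSC and 43.5 and 56.6 times in NSC Bmi1Over. Among the D cyclins Ccnd1 was between 1.93 and 2.26 times as abundant as Ccnd2, and Ccnd2 between 14.1 and 16.8 times as abundant as Ccnd3. Ccnd1 reached the 99.0 percentile of all genes tested and Cdk6 the 32.6 percentile. In the order of the 42 levels, 36 of the 41 pairs of neighbours overlapped over the 4 libraries, so most of the order within the middle of the range was not resolved.

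**Figure D4:**
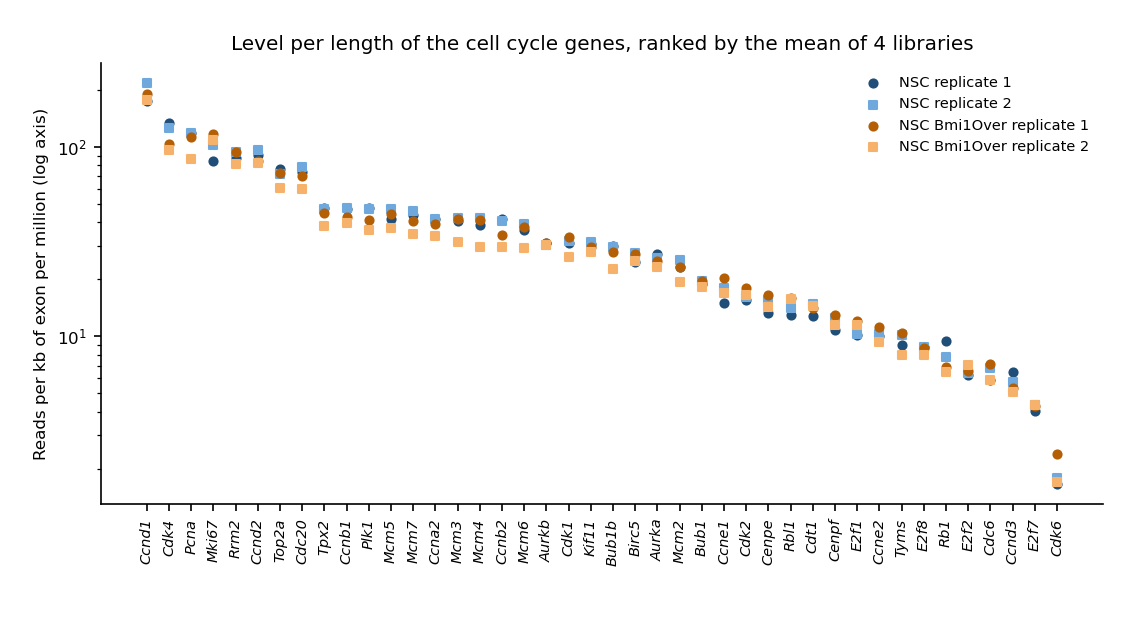
RPKM on a log axis for the 42 genes in each of the 4 RNASeq libraries, ranked by their mean. Ccnd1 stands above the rest, between 175 and 218, and Cdk6 lies lowest, between 1.66 and 2.38.

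H3K27me3 was called near 2 of the 42 genes. Within 5 kb of an annotated transcription start site, Cdk6 and Bub1 had a peak in the NSC list and the same 2 genes had one in the NSC Bmi1Over list. Among the 13325 protein-coding genes tested, 7.76% had such a peak in the NSC list and 3.25% in the NSC Bmi1Over list. With 1 ChIPSeq library a group these peaks have no replicate check.

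Cdk6, the member with the lowest level per length, carried the broader mark. In NSC a peak of 7295 bp, chr5:3335541-3342835 in mm10, spanned the first annotated start of Cdk6 (ENSMUSG00000040274, plus strand, chr5:3341485-3531008), from −5944 to 1350 bp relative to it, at a 6.23-fold enrichment (−log10 q 7.56). The start of the RefSeq transcript lies 1057 bp beyond the end of this peak. In NSC Bmi1Over the same stretch held 3 peaks, of 460, 646 and 1840 bp, with fold enrichments of 4.73, 6.33 and 6.34, the last of which ended at −593 bp. These lengths come from single libraries whose peak lists differ in size, with 1034 protein-coding genes marked in NSC and 433 in NSC Bmi1Over, and the part of library depth in them was not tested. The CPM of Cdk6 overlapped between the groups, as given above, and its difference was not called.

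Bub1, a kinase of the spindle assembly checkpoint, lay beside peaks shorter than those at Cdk6 in the same list. In NSC 3 peaks of 319, 432 and 805 bp lay between −4228 and −2132 bp of its start (ENSMUSG00000027379, minus strand, chr2:127801122-127831865), with fold enrichments between 3.88 and 4.11. In NSC Bmi1Over a peak of 202 bp lay between −4731 and −4530 bp, with a fold enrichment of 4.77. Bub1 was at 82.4 and 85.1 CPM in NSC and at 85.2 and 79.4 CPM in NSC Bmi1Over, with overlapping groups and a log2 fold change of −0.03. With a window of 1 kb or a fold enrichment of at least 5, Bub1 dropped out and Cdk6 was left in both lists. For the other 40 genes the nearest peak to the gene start was at least 14048 bp away in the NSC list, at Cdk4, and at least 41756 bp in the NSC Bmi1Over list.

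**Figure D5:**
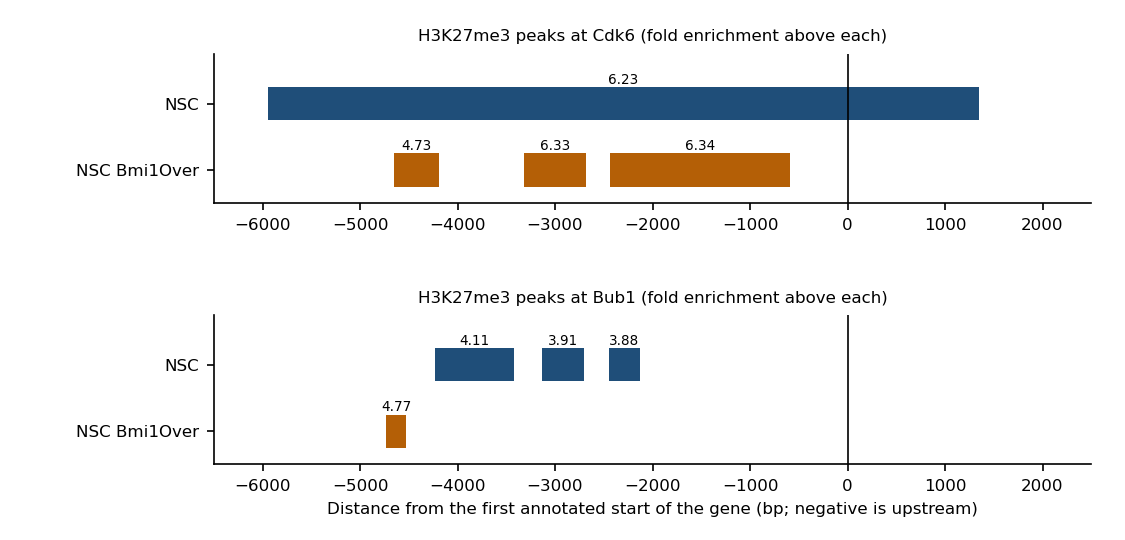
H3K27me3 peaks of the NSC and NSC Bmi1Over lists by their distance in bp from the first annotated start of Cdk6 and of Bub1, with the fold enrichment printed above each peak. At Cdk6 a single NSC peak of 7295 bp crosses the start while 3 NSC Bmi1Over peaks lie upstream of it, and at Bub1 all peaks lie more than 2 kb upstream.

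Beyond the 42 genes, 99 further genes of the cell cycle were examined, all of which were tested. Of these 1 was called, beside 2.15% of all genes tested. It was Btg2, an antiproliferative target of p53, at 55.5 and 44.7 CPM in NSC and at 26.3 and 32.0 CPM in NSC Bmi1Over. It fell, with a log2 fold change of −0.78 (standard error 0.16) and an adjusted p of 0.0471 by edgeR's quasi-likelihood test, and it was the only 1 of 8 p53 targets of arrest to be called. The call was lost with DESeq2's size factors, with a minimum of 1 CPM in 2 libraries and without NSC replicate 1. None of 27 S phase genes, 44 genes of G2 and mitosis and 13 other pocket protein, E2F and DREAM subunits was called, with median log2 fold changes of −0.07, −0.07 and −0.10. An unadjusted p under 0.05 was reached by 0, 1 and 0 of them, and DESeq2's Wald test called 1, Anln, a cytokinesis gene of the second list, with higher values in NSC Bmi1Over, beside 9.59% of all genes tested that it called. None of the 7 inhibitors of cyclin-dependent kinases was called. An unadjusted p under 0.05 was reached by 2 of them, beside 24.2% of all genes tested. All 7 had a log2 fold change below 0, as did 7982 of the 15521 genes tested. The lowest was that of Cdkn2b, at −0.63 (standard error 0.22), with an adjusted p of 0.133 by edgeR's quasi-likelihood test. Among the 7, Cdkn2a was at 28.1 and 25.1 CPM in NSC and at 21.4 and 17.0 CPM in NSC Bmi1Over. Cdkn2a had a log2 fold change of −0.48 (standard error 0.16) and an adjusted p of 0.116 by edgeR's quasi-likelihood test. It was called with no filter on low counts and without NSC Bmi1Over replicate 1, settings in which 8.25% and 15.6% of all genes tested were called. Cdkn1a (p21) was at 276 and 267 CPM in NSC and at 245 and 231 CPM in NSC Bmi1Over, with a log2 fold change of −0.19 and an adjusted p of 0.405 by the same test. In NSC Bmi1Over, replicate 2 was below replicate 1 at 26 of the 27 S phase genes, 40 of the 44 genes of G2 and mitosis, 8 of the 13 pocket protein, E2F and DREAM subunits, 5 of the 7 inhibitors and 4 of the 8 p53 targets, beside 50.3% of all genes tested.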

How the data were processed

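The authors trimmed the RNASeq reads and mapped them to mm10 using STAR, and the deposited values are raw counts per gene. The unstranded count was used, which leaves out reads over exons of more than 1 gene, and the strand columns had nearly equal totals. For ChIPSeq the authors deposited broad MACS2 peaks called per library, with the fold enrichment (a ratio over background), −log10 p and −log10 q of each; Bowtie2 2.3.4 and Trim Galore are named in the submitters' processing notes. The methods of the study state that the ChIP was done on replicates and that the weaker library of each group was discarded, so each list rests on 1 library.

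Counts were filtered with filterByExpr, TMM-normalised and fitted in edgeR 4.0.16 (R 4.3.3) with the quasi-likelihood F-test, without covariates. Benjamini-Hochberg adjustment ran over all 15521 genes tested, and genes were called at an adjusted p under 0.05. Of 50686 identifiers, 50462 matched GENCODE vM21. The biological coefficient of variation was 12.9%. Fold changes are edgeR's, with the standard error taken from the F statistic. RPKM used merged exon lengths. Peaks were assigned to a gene when they overlapped the 5 kb on either side of an annotated start by at least 1 bp. Motifs were searched on both strands of RefSeq promoter windows of GRCm38.p6. The code was tested on simulated data. DESeq2 1.42.0 was an alternative, among others.

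The members, their roles and the other lists were chosen with earlier results of these data known. Genes given with values in each library were members called, the 3 largest and 3 smallest log2 fold changes, the 3 widest differences between cultures in each group, the highest level per length in each role, and members with a promoter peak. Top2a, Plk1 and Cdk1 were added after their values were seen. Some members share exon bases with another gene, 15 of the 42, at least 5% in 9. No table of protein sequences was used.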

Additional observations from a re-analysis of the deposited data

How the results depend on the processing

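None of the 42 cell cycle genes was called without a filter on low counts, with a minimum of 1 CPM in 2 libraries, with scaling by library size alone or by DESeq2's size factors, or with DESeq2's Wald test, nor with the sum of both stranded columns, protein-coding genes only or thinned counts. The genes called in all numbered 334 in the main comparison, 1488 with DESeq2's Wald test, 537 with library size alone (64.4% of them higher, against 94.3%) and 2356 with no filter on low counts. Of the 99 other cell cycle genes, 2 were called with DESeq2's Wald test, 3 with no filter, and 0 with DESeq2's size factors or with a minimum of 1 CPM, where Btg2 was lost. With each culture left out in turn, between 176 and 2546 genes, 0 to 1 of the 42 and 0 to 3 of the 99 were called, and the median log2 fold change of the 42 lay between −0.20 and 0.0042. The highest counts came without NSC Bmi1Over replicate 1, where 1 culture stands for the group and is assumed to vary like the others, and 1461 genes were called without NSC replicate 2. The log2 fold change of Cdk6 ranged from −0.021, without NSC Bmi1Over replicate 1, to 0.47, without NSC Bmi1Over replicate 2. With library size alone the median of the 42 was −0.25, and the log2 fold changes of Mki67, Cdk6 and Rbl1 were 0.13, 0.088 and 0.083. The cause of these changes was not tested.

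The replicate numbers were not shown to pair the cultures, since the differences between replicates correlated at r = 0.17 between the groups over only 2 pairs. With a replicate block, 3459 genes were called, 22.3% of all genes tested, and 70.3% of them were higher. Among them were 4 of the 42 (9.52%), Ccnb2, Cdk4, Plk1 and Rb1, all lower. Of the 99, 7 were called, Cdkn2a and Cdkn2b among them. With 4 libraries the block leaves few residual degrees of freedom, so the spread assumed for each gene leans on that of the other genes.

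A minimum −log10 q of 3 left 1 of the 42 with a peak in the NSC list and 2, Cdk6 and Bub1, in the NSC Bmi1Over list, while a window of 1 kb or a fold enrichment of at least 5 left 1 in each list. The gene left alone was Cdk6 in every case. Every member had at least 561 reads in each library, and there were 2 cultures a group.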
